A study of Saccharomyces cerevisiae with 10 samples.

Results

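The hexokinases and glucokinases of budding yeast were followed through potassium chloride stress and recovery. The members were the 4 genes with the symbols HXK1 (YFR053C), HXK2 (YGL253W), GLK1 (YCL040W) and EMI2 (YDR516C), taken by name from the 5449 S. cerevisiae genes on the array. Each was read by 1 probe set, and all 4 probe sets lay above background on all 10 arrays. RNA from 5 points of a growth regime, Samples A to E, was hybridised to Affymetrix Yeast Genome 2.0 arrays, with 2 arrays per sample. All samples came from the strain labelled BQS1350, which the methods describe as a BY4742 derivative (MATα, his3, leu2, lys2, ura3) whose Gcn5 protein carries a MYC tag, so every group carries the tag. Cells grew at 30 °C in YPD, a rich medium with 2% glucose. Sample A was taken from log-phase cells in normal medium. Sample B was taken 1 h after the culture was diluted into medium bringing KCl to 1 M, and Sample C once cells had adapted and were growing in KCl. Sample D was collected 1 h after the cells had been moved to YPD without KCl, and Sample E 2 to 3 generations later. The change of salt came with fresh medium and a lower cell density in Samples B and D, and these cannot be told apart here. The 2 replicates were cultures grown at different times, and each replicate number was taken to mark a culture batch. The p-values measure the spread between 2 cultures of a single tagged strain.

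Hexokinases and glucokinases add a phosphate to glucose as it enters the cell. The product, glucose 6-phosphate, feeds glycolysis, the pentose phosphate pathway and the storage carbohydrates trehalose and glycogen. HXK2 encodes the main enzyme of cells growing on glucose, and its protein also takes part in glucose repression, the silencing of genes for other carbon sources. HXK1 encodes a second hexokinase, which like Hxk2 accepts both glucose and fructose. GLK1 encodes glucokinase, which phosphorylates glucose but not fructose. HXK1 and GLK1 are known as genes that glucose represses and that are derepressed when glucose runs out. EMI2 is the duplicate of GLK1 that arose in the whole-genome duplication, and was named for a part in the early induction of meiosis.

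Values are RMA signals on the log2 scale, so a difference of 1 is a doubling of signal. The median over genes was between 9.60 and 10.19 on the 10 arrays, and the 95th percentile of probe sets for another yeast species, used as background, between 5.11 and 5.68. The highest gene on each array read 14.6 to 14.76. Sample B stood apart: its replicates differed by a root mean square of 1.05, and those of the remaining samples by 0.32 to 0.48. On the Sample B arrays the 18S rRNA 3′ probe set read 10.09 and 10.31 (elsewhere 11.21 to 12.66), and the EAF5 control was higher at its 3′ than at its 5′ end by 1.16 and 1.31 (elsewhere 0.76 to 1.08). The 25S rRNA 3′ probe set, at 13.55 and 14.00, lay within the range of the other arrays (13.43 to 14.04), and the same end difference of ACT1 was 0.18 and 0.56, on either side of 0.25 to 0.37 elsewhere. The part of these differences in the results for Sample B was not tested. The 4 α mating type markers read 10.35 to 14.06 and the 5 a-type markers 5.23 to 7.45. Of the a-type markers, MFA2 was above background on 6 arrays, AGA2 on 9, and MFA1, STE2 and BAR1 on 10. Of the genes with a marker allele in the strain, LYS2 (4.43 to 5.07) and URA3 (3.62 to 4.23) were above background on 0 arrays. LEU2 was low, at 5.18 to 5.99, but above background on 10 arrays. HIS3, of which the his3 allele of this strain background removes only a part, read 10.21 to 11.58.

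HXK1 was the member with the widest span. It read 8.67 and 10.26 in replicates 1 and 2 of Sample A, 13.16 and 13.69 in Sample B and 12.38 and 12.69 in Sample C. During recovery it read 11.51 and 12.50 in Sample D, and 9.30 and 11.40 in Sample E. Both arrays of B, C and D lay above both arrays of A, whereas E overlapped A. The means were 9.46 ± 1.12 (SD, n = 2) in A, 13.43 ± 0.37 in B, 12.54 ± 0.22 in C, 12.00 ± 0.70 in D and 10.35 ± 1.48 in E. The order of the means was B, C, D, E, A, and the neighbours C and D, and E and A, overlapped. The whole range over arrays was 5.02, wider than that of 99.2% of genes.

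GLK1 followed the same order. Its values were 10.49 and 11.80 in Sample A, 13.36 and 14.13 in B, 12.63 and 12.68 in C, 12.37 and 12.87 in D, and 11.56 and 12.39 in E. Again B, C and D lay above both A arrays and E overlapped A. The means ran from 11.14 ± 0.93 (SD, n = 2) in A to 13.74 ± 0.54 in B, and C (12.65 ± 0.041) and D (12.62 ± 0.35) could not be ordered. Sample E, at 11.97 ± 0.59, overlapped both D and A. The range of GLK1 was 3.64, wider than that of 97.6% of genes.

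The means of EMI2 had Sample D above C, unlike those of its duplicate. It read 9.44 and 10.26 in Sample A, 11.53 and 12.59 in B, 10.72 and 10.79 in C, 11.11 and 11.76 in D, and 9.98 and 10.82 in E. Both arrays of B, C and D exceeded those of A, and both arrays of D exceeded those of C. The means were 9.85 ± 0.58 (SD, n = 2) in A, 12.06 ± 0.76 in B, 10.76 ± 0.054 in C, 11.43 ± 0.46 in D and 10.40 ± 0.60 in E, which gave the order B, D, C, E, A. Of these neighbours, B and D, C and E, and E and A overlapped. EMI2 covered a range of 3.15, wider than that of 96.1% of genes.

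HXK2 stayed within a narrow band. It read 13.72 and 13.81 in Sample A, 13.80 and 13.53 in B, 13.57 and 13.91 in C, 13.82 and 13.93 in D, and 13.80 and 14.07 in E. Its lowest array was a Sample B array and its highest a Sample E array, and A overlapped B and C. The means were 13.76 ± 0.063 (SD, n = 2) in A, 13.66 ± 0.20 in B, 13.74 ± 0.23 in C, 13.87 ± 0.081 in D and 13.93 ± 0.19 in E. Its range of 0.54 was small: 5.71% of genes had a smaller one, and the median range over genes was 1.14. HXK2 lay between the percentiles 96.6 and 98.2 of its array throughout, and any compression of signal near the top of the scale was not tested.

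The 3 genes with wide ranges also differed between culture batches. HXK1, GLK1 and EMI2 read higher in replicate 2 than in replicate 1 in all 5 samples, as did 23.2% of all genes. The median over genes was also higher in replicate 2 in 4 of 5 samples, by up to 0.60 in Sample B, and after each array was centred on its median the 3 genes were higher in replicate 2 in 4 of 5 samples each. The gap for HXK1 was 1.59 in Sample A and 2.10 in E but 0.31 in C. For GLK1 it ran from 0.06 in C to 1.31 in A, and for EMI2 from 0.08 in C to 1.07 in B. HXK2 did not share this direction in Sample B, where replicate 2 was the lower.

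**Figure D1:**
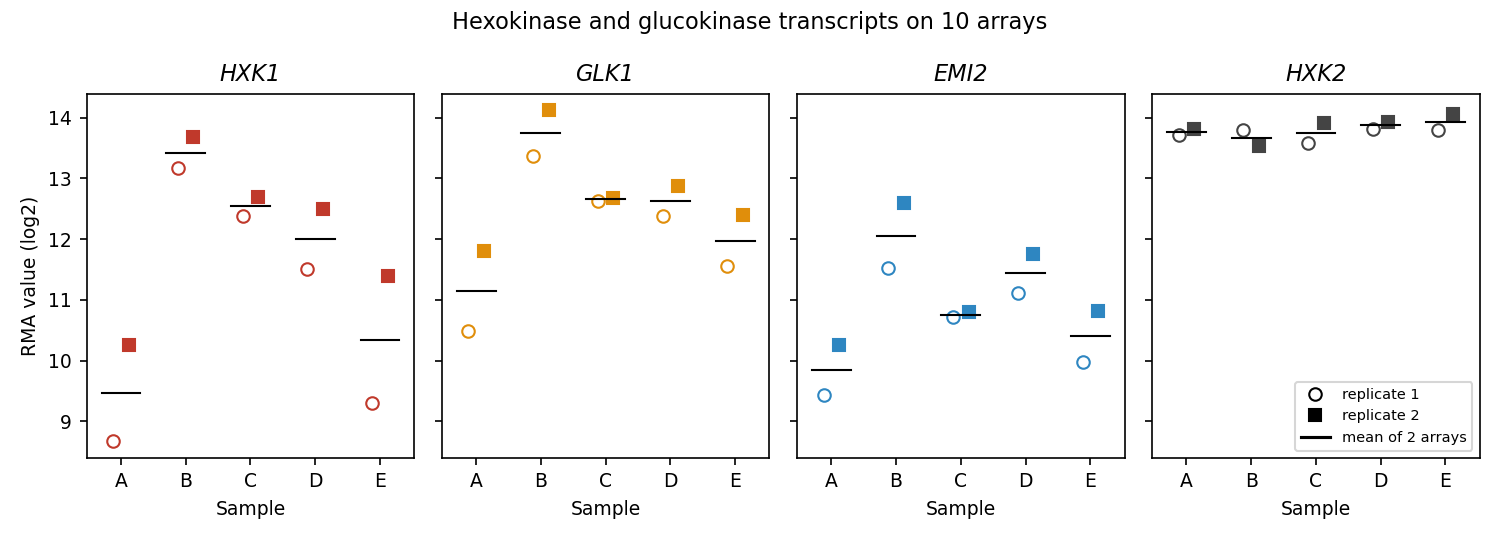
RMA values (log2) of HXK1, GLK1, EMI2 and HXK2 on the 10 arrays, by sample; open circles are replicate 1, filled squares replicate 2 and bars the mean of 2 arrays. HXK1, GLK1 and EMI2 were highest in Sample B and lowest in Sample A, and HXK2 stayed between 13.53 and 14.07; heights are not comparable between genes.

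The first comparison asked how the transcripts stood 1 h into KCl stress. HXK1, GLK1 and EMI2 rose in Sample B and HXK2 was not called. HXK1 rose by 3.96 ± 0.72 on the log2 scale (SE, 95% interval 2.33 to 5.59), which is 15.6-fold (limma, Benjamini-Hochberg adjusted p = 0.0226). Within the batches the rise was 4.49 and 3.43. GLK1 rose by 2.60 ± 0.48 (1.52 to 3.68), 6.07-fold (limma adjusted p = 0.0226), with 2.88 and 2.33 in the 2 batches. EMI2 rose by 2.21 ± 0.46 (1.17 to 3.25), 4.62-fold (limma adjusted p = 0.0341), with 2.08 and 2.33 in the batches. HXK2 differed by -0.10 ± 0.24 (-0.64 to 0.45; limma adjusted p = 0.872), 0.09 in one batch and -0.28 in the other. Thus 3 of 4 members were called higher, where 3.51% of all genes were called higher and the median gene differed by 0.08. The same 3 members had groups that did not overlap, as had 23.1% of genes in that direction. With the replicate block the 3 calls stood (limma adjusted p = 0.00178 for HXK1, 0.00241 for GLK1 and 0.00263 for EMI2), among 8.11% of genes called higher. Ranked from the highest difference among 5449 genes, HXK1 stood at 34, GLK1 at 97 and EMI2 at 146. Without replicate 1 of Sample A the differences of HXK1, GLK1 and EMI2 were 3.17, 1.95 and 1.80, and without replicate 2 they were 4.76, 3.26 and 2.62. In both fits calls were lost, among the members and over all genes alike. EMI2 also lost its call when any array of C, D or E was left out, where fewer genes were called as well. Adjusting over all probe sets that are not controls ended it too (limma adjusted p = 0.0545, with 2.11% of those probe sets called). All 3 calls were lost with array weights (limma adjusted p = 0.225 to 0.274), where 0.184% of all genes were called. They were also lost with Samples A and B fitted alone (limma adjusted p = 0.0686 to 0.202), where 0.202% were called.

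**Figure D2:**
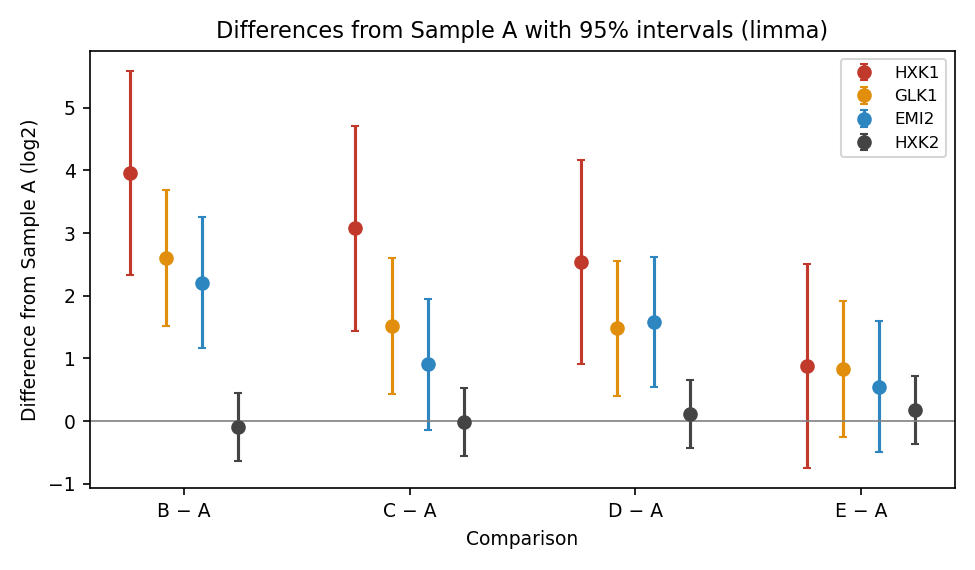
Difference of each later sample from Sample A (log2) for the 4 members; points are limma estimates and bars their 95% intervals. In B minus A the intervals of HXK1 (2.33 to 5.59), GLK1 (1.52 to 3.68) and EMI2 (1.17 to 3.25) lie above 0, and that of HXK2 (-0.64 to 0.45) includes 0.

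The second comparison set cells adapted to KCl against normal growth. HXK1 was 3.07 ± 0.72 higher in Sample C than in Sample A, 8.42-fold, GLK1 was 1.51 higher, 2.85-fold, and EMI2 0.91 higher, 1.87-fold. Leaving out replicate 1 or replicate 2 of Sample A moved these to 2.28 or 3.87 for HXK1, 0.86 or 2.17 for GLK1 and 0.49 or 1.32 for EMI2. None passed the threshold in the fit without the culture batch (limma adjusted p = 0.243, 0.573 and 1), in which 0.0184% of genes were called. With the replicate number as a block, HXK1 was called (limma adjusted p = 0.0203) and GLK1 and EMI2 were not (0.0698 and 0.29), where 0.642% of genes were called higher. Leaving out either Sample B array kept the difference of HXK1 at 3.07. HXK1, GLK1 and EMI2 had both C arrays above both A arrays, as had 18.1% of genes. HXK2 differed by -0.02 (95% interval -0.56 to 0.52).

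After the return to medium without KCl, Sample D remained above Sample A in signal but was not called. The difference was 2.54 for HXK1 (5.82-fold), 1.48 for GLK1 (2.79-fold) and 1.58 for EMI2 (3.00-fold), with limma adjusted p = 0.721, 0.927 and 0.74, and 0.0763, 0.145 and 0.0791 with the replicate block. With replicate 1 or 2 of Sample A left out, the difference was 1.75 or 3.33 for HXK1, 0.82 or 2.13 for GLK1 and 1.17 or 1.99 for EMI2. All 4 members, HXK2 included, had both D arrays above both A arrays, against 9.97% of genes, and the difference of HXK2 was 0.11 (-0.43 to 0.65). At this comparison 0% of all genes were called without the block and 0.239% with it. In Sample E, HXK1 was 0.88, GLK1 0.83, EMI2 0.55 and HXK2 0.17 above Sample A, all 4 groups overlapped and none was called (limma adjusted p = 1 for HXK1). The interval for HXK2 was -0.37 to 0.71.

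After Sample B, none of the steps between successive samples was called for a member in the main fit, in which 0% of genes were called at each of these steps. From B to C, HXK1 differed by -0.89, GLK1 by -1.09 and EMI2 by -1.30 (limma adjusted p = 0.741, 0.478 and 0.386), and all 3 had both C arrays below both B arrays, as had 19.1% of genes. Without replicate 1 of Sample B, GLK1 (-1.47) and EMI2 (-1.84) were called (limma adjusted p = 0.0474 and 0.0127), but so were 20.3% of all genes in that direction. From C to D, EMI2 was 0.68 higher, with 0.39 and 0.97 in the batches (limma adjusted p = 1, and 0.499 with the replicate block), GLK1 differed by -0.03 and HXK1 by -0.53. EMI2's groups did not overlap at this step, as for 13.7% of genes. From D to E, HXK1 differed by -1.66, EMI2 by -1.03 and GLK1 by -0.65, against a median gene of 0.25, and HXK1 and EMI2 had groups that did not overlap, as had 3.08% of genes in that direction. HXK2 differed by 0.08, 0.13 and 0.06 over the 3 steps.

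To set HXK2 against the other forms, each gene was expressed relative to HXK2 on the same array, so that shifts HXK2 shares drop out. In Sample B the array median was 0.60 higher in replicate 2, whereas HXK2 differed by -0.28. There the 3 ratios differed more between replicates than the 3 genes themselves did. Relative to the Sample A mean, the HXK1 to HXK2 ratio was 3.66 and 4.46 in Sample B, 3.11 and 3.08 in C, 1.99 and 2.87 in D, and -0.21 and 1.63 in E, with -0.75 and 0.75 in A. The ratio of GLK1 was 2.18 and 3.22 in Sample B and between 1.18 and 1.67 in C and D. For EMI2 it was 1.63 and 2.98 in Sample B, 1.05 and 0.80 in C, and 1.20 and 1.74 in D. All B, C and D arrays lay above both A arrays for all 3 ratios, but the share of all genes whose ratio did so was not counted.

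Between Samples A and B, the ratio to HXK2 rose 16.7-fold for HXK1 (4.06 ± 0.67, 95% interval 2.53 to 5.58; limma adjusted p = 0.0202). It rose 6.49-fold for GLK1 (2.70 ± 0.48, 1.62 to 3.78; adjusted p = 0.0237 by limma) and 4.94-fold for EMI2 (2.30 ± 0.47, 1.23 to 3.38; adjusted p = 0.0376 by limma). All 3 members were called higher, against 2.85% of the 5448 other genes. In Sample C the ratios were 3.10, 1.53 and 0.93 above Sample A and none was called (limma adjusted p = 0.223 to 1). Without replicate 1 or replicate 2 of Sample A the rises in B were 3.31 or 4.81 for HXK1, 2.09 or 3.31 for GLK1 and 1.94 or 2.67 for EMI2. In both fits calls were lost, among the ratios and over all genes alike. The ratio of EMI2 also lost its call when an array of C, D or E was left out, and that of GLK1 when an array of D was. Array weights left 0 of the 3 ratios called, where 0% of all genes were called. An exact two-sided permutation test asked whether each ratio differed among the 5 samples at all, not between A and B alone. Over the 945 ways to divide 10 arrays into 5 pairs, the exact permutation p was 0.0265 for HXK1 to HXK2, 0.0106 for GLK1 to HXK2 and 0.0201 for EMI2 to HXK2. The smallest p the test allows is 0.00106, and 6 ratios among the members were tested. With Benjamini-Hochberg adjustment over the 6, each of these exact permutation p-values became 0.0529, so none stayed under 0.05. When arrays were exchanged only within a culture batch, the exact permutation p was 0.00833 for HXK1, 0.0167 for GLK1 and 0.00833 for EMI2 (0.0167, 0.025 and 0.0167 after adjustment), with 0.00833 the smallest p this form allows.

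**Figure D3:**
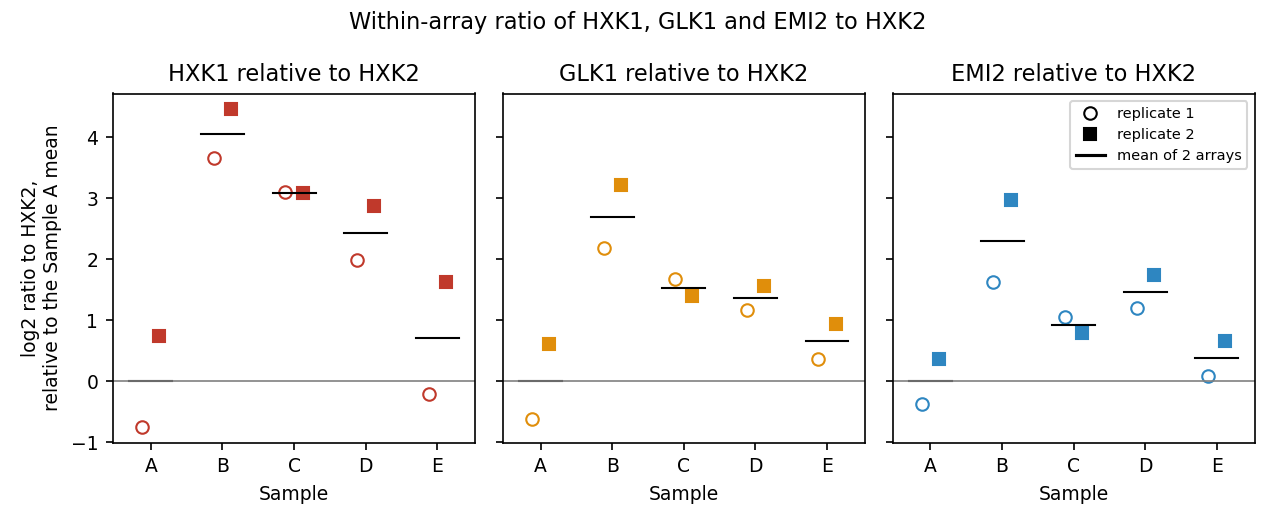
Log2 ratio of HXK1, GLK1 and EMI2 to HXK2 on each array, relative to the mean of Sample A, by sample; open circles are replicate 1, filled squares replicate 2 and bars the mean. The Sample B arrays lie at 3.66 and 4.46 for HXK1, 2.18 and 3.22 for GLK1 and 1.63 and 2.98 for EMI2.

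Among themselves, HXK1 had the largest differences from Sample A in B, C and D. From A to B, HXK1 gained 1.75 more than EMI2, with 2.41 and 1.10 in the batches, and 1.36 more than GLK1, with 1.62 and 1.10. From A to C these differences of changes were 2.17 for HXK1 over EMI2 and 1.56 for HXK1 over GLK1. Over the 5 samples, the HXK1 to EMI2 ratio gave an exact permutation p of 0.0381, or 0.0571 after adjustment over the 6 ratios, and 0.00833 (0.0167 adjusted) within batches. The ratios of HXK1 to GLK1 and of GLK1 to EMI2 did not reach 0.05 (exact permutation p = 0.0677 for each, and 0.0833 and 0.133 within batches). From C to D the change of GLK1 less that of EMI2 was -0.71, with -0.64 and -0.78 in the batches; this step alone was not tested.

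A test for any difference among the 5 samples called none of the members without the batch. The limma F test gave adjusted p = 0.112 for HXK1, 0.162 for GLK1, 0.192 for EMI2 and 0.978 for HXK2, where 0.532% of genes were called. With the replicate block, HXK1 (limma adjusted p = 0.00937), GLK1 (0.018) and EMI2 (0.018) were called and HXK2 (0.891) was not, against 3.27% of genes. Taken one gene at a time, with no adjustment, an exact permutation test over the 945 divisions gave p = 0.0455 for HXK1, 0.0222 for GLK1, 0.0444 for EMI2 and 0.541 for HXK2.

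The arrays share samples and batches, so likeness of pattern over the 10 arrays is given as a description. HXK1 and GLK1 had a Pearson r of 0.957, GLK1 and EMI2 0.952, and HXK1 and EMI2 0.896. HXK2 had r = -0.139, -0.191 and -0.168 with HXK1, GLK1 and EMI2. The gene most like both HXK1 (r = 0.981) and GLK1 (r = 0.985) was GSY2, which encodes glycogen synthase. DDR2, a stress-response gene, PRM10, TMA10 and YPC1, which encodes a ceramidase, followed for HXK1 at 0.976 to 0.958. For GLK1 the next were HOR7, TMA10, TSL1, which encodes a subunit of the trehalose synthase complex, and CLD1, at 0.978 to 0.963. EMI2 was most like PDE1, a cyclic AMP phosphodiesterase gene (0.983), then PNC1, TPS2, which encodes the phosphatase of trehalose synthesis, KIN82 and NGL3. HXK2 was most like GUS1, which encodes glutamyl-tRNA synthetase (0.908), then ASH1, MRS6, GCN4 and ADH3 (0.853), over a range of only 0.54. After each array was centred on its median, 2 of these 5 genes remained among the 5 most alike for HXK1, GLK1 and HXK2, and 3 for EMI2.

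The other genes around glucose 6-phosphate were compared between Samples A and B by list. Of 14 genes for enzymes that lead glucose 6-phosphate to trehalose, glycogen and pentose phosphates, 6 were called higher and 0 lower, with a median difference of 2.42, against 3.51% of all genes called higher, 0.899% called lower and a median of 0.08. With the replicate block 10 were called higher, where 8.11% of all genes were. SOL4, a 6-phosphogluconolactonase gene, rose by 5.19 ± 0.91 (36.4-fold, limma adjusted p = 0.0207), and PGM2, which encodes the main phosphoglucomutase, by 4.11 ± 0.71 (17.3-fold, 0.0204). TSL1 was 3.89 higher but missed the threshold without the block (limma adjusted p = 0.0549). Of the 13 measured genes of glycolysis below glucose 6-phosphate, 0 were called in either direction without the block and 1 with it, and the median difference was 0.02. Of these 13 genes, 7 read 14 or more on all arrays, close to the highest value of an array, and compression of their signal was not tested. The largest differences there were those of PYK2 (1.92), TDH1 (1.20) and ENO1 (0.51), with limma adjusted p of 0.0594, 0.13 and 0.252.

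Of the 17 measured glucose-repressed genes, 6 were called higher and 0 lower, against 3.51% and 0.899% of all genes. Their median difference was 1.44. With the replicate block 11 were called higher, where 8.11% of all genes were. The list was not uniform: SIP4 (1.78), HXT2 (0.51), SUC2 (0.38), HAP4 (0.20), GAL1 (-0.04) and CYC1 (-0.84) were called in neither fit. ADR1, an activator of genes for ethanol and fatty acid use, rose by 2.26 ± 0.35 (4.79-fold, limma adjusted p = 0.0145). HXT7, a high-affinity glucose transporter gene, was 2.88 higher (limma adjusted p = 0.0755) on a probe set that can also read related transporter genes. ADH2, which encodes the alcohol dehydrogenase that consumes ethanol, was 2.18 higher (limma adjusted p = 0.0593). Of the 20 genes of the repression machinery 1 was called in either direction, where 4.4% of all genes were. It was REG2, which encodes a regulatory subunit of the Glc7 phosphatase and rose by 1.69 ± 0.33 (3.24-fold, limma adjusted p = 0.0276). The replicate block added SIP2, which encodes a β subunit of the Snf1 kinase complex (limma adjusted p = 0.0229). That made 2 of the 20 called, against 10.7% of all genes. Without the block, MTH1 (1.90) and SIP2 (1.03) were not called (limma adjusted p = 0.194 and 0.111). In the other 6 comparisons 0 genes of the 4 lists were called without the block. With it, the trehalose, glycogen and pentose phosphate list had 2 genes called higher in C and 3 in D, each against A. The shares of all genes called higher there were 0.642% and 0.239%.

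**Figure D4:**
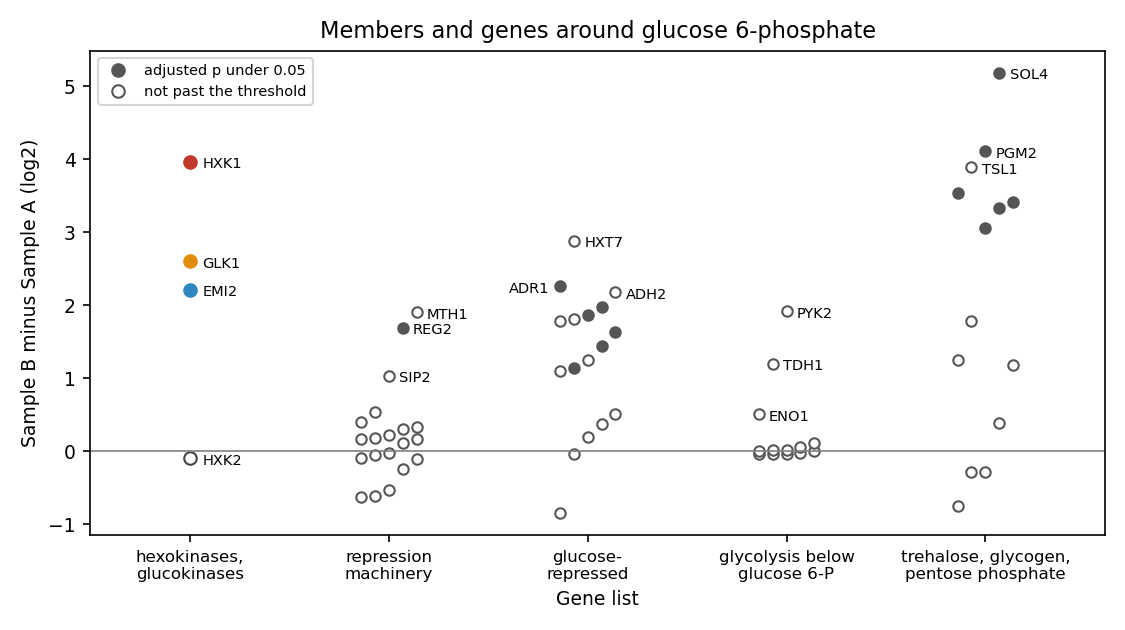
Difference between Samples B and A (log2) for the 4 members and for 4 lists of genes around glucose 6-phosphate; each point is a gene, filled where the limma adjusted p was under 0.05. HXK1, GLK1 and EMI2 lie at 3.96, 2.60 and 2.21, HXK2 at -0.10, and most genes of glycolysis below glucose 6-phosphate lie near 0.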

How the data were processed

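The deposited values are log2 signals that the authors made with the RMA method in Affymetrix Expression Console (no version was found in the sources). Of 10928 probe sets, 213 controls were left out, and 5498 were matched to S. cerevisiae genes through the platform's gene identifiers and RefSeq. Where a gene had more than 1 probe set (47 genes), that with the highest mean was kept, which left 5449 genes. The 95th percentile of 1746 probe sets of another yeast species served as background.

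All 10 arrays were fitted with limma 3.58.1 in R 4.3.3, with 1 coefficient per sample, empirical Bayes and Benjamini-Hochberg adjustment over all genes (threshold 0.05). The spread was pooled over samples, since each has only 2 arrays. The methods say that the 2 replicate cultures were grown at different times, and the labels give only a replicate number. The replicate numbers were taken to pair the samples. Same-numbered deviations correlated at 0.221 to 0.521 (median 0.426 over 10 pairs of samples). The fit with a replicate block was an alternative. Other alternatives were quantile normalization, median centring, a trend in the spread, a filter on dim genes, all probe sets, array weights, 2 groups alone, and leaving out each array. The scripts were tested on simulated data.

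The members and gene lists were chosen with earlier results of these data known. Named genes were the members, the 5 genes most correlated with each, and the 3 largest differences between B and A in each list. YLR446W, HXT6, GAL4, TDH2, promoter motifs and protein identity were not analysed here.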

Additional observations from a re-analysis of the deposited data

How the results depend on the processing

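With 2 arrays per sample the number of arrays limits the precision, and an array left alone in its sample is assumed to vary like the others. The 3 calls between Samples A and B remained with the replicate block, quantile normalization and median centring, and became 0 with array weights and with the 2 groups alone; leaving out each array gave 0 to 3. Over all genes, 240 calls became 583 with the replicate block, 496 with quantile normalization, 453 with median centring, 10 with array weights, 11 with the 2 groups alone and 0 to 1848 with each array left out. For C minus A, 0 calls became 1 with the replicate block (0.771% of all genes called) and 2 with the 2 groups alone (3.43%). For E minus D they became 2 with the 2 groups alone (2.15%). In C minus B with an array left out, GLK1 ran from -1.47 to -0.71 and EMI2 from -1.84 to -0.77. Relative to HXK2, the 3 calls in B minus A became 0 with array weights, where 0% of all genes were called. With an array left out, calls varied among the members and over all genes alike. The differences then ran from 3.31 to 4.81 for HXK1, 2.09 to 3.31 for GLK1 and 1.63 to 2.98 for EMI2. In C minus B they ran from -1.36 to -0.56, -1.69 to -0.65 and -2.05 to -0.71. The F test called 3 members with the replicate block (3.27% of all genes called) and 1 with a trend in the spread (1.47%). Its calls varied with an array left out, among the members and over all genes alike. Leaving out both Sample B arrays was chosen after seeing the data. It gave 1 call in C minus A (1.74% of all genes called). With the replicate block as well it gave 3 in C minus A (4.83%), 3 in D minus A (2.72%), 2 in E minus D (0.881%), 2 in C minus A relative to HXK2 (4.22%) and 3 by the F test (6.17%). The replicate block changed no other call of a member. The causes were not tested.

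None of the values that changed sign was called. GLK1 in D minus C was 0.044 with quantile normalization and 0.079 with median centring (-0.28 to 0.22 with an array left out), and HXK2 in E minus D was -0.039 and -0.21 (-0.071 to 0.19). With each array left out, HXK2 ran from -0.24 to 0.042 in B minus A, -0.19 to 0.14 in C minus A, -0.090 to 0.24 in C minus B and -0.033 to 0.30 in D minus C. HXK1 in E minus A, 0.88 in the main fit, ran from -0.17 to 1.93. Relative to HXK2 it was 0.71 and ran from -0.21 to 1.63. GLK1 relative to HXK2 in D minus C ran from -0.36 to 0.025.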

Other observations

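Outside the hexokinases, several steps of carbon metabolism are also served by a pair of related genes, and these pairs were looked up after the values had been seen. Between Samples A and B, PYK2 was 1.92 higher and CDC19, the other pyruvate kinase gene, 0.01. PGM2 was 4.11 higher and PGM1 differed by -0.75, SOL4 was 5.19 higher and SOL3 differed by -0.29, and GND2 was 3.06 higher and GND1 differed by -0.28. For the glyceraldehyde 3-phosphate dehydrogenase genes the values were 1.20 for TDH1 and -0.03 for TDH3, and for the enolase genes 0.51 for ENO1 and -0.03 for ENO2. The glycogen synthase genes did not show this: GSY1 was 3.54 and GSY2 3.42 higher, and both passed the limma test. Of the other genes SOL4, PGM2 and GND2 passed the limma test, and the difference within each pair was not tested. CDC19, TDH3 and ENO2 read 14 or more on all arrays, close to the highest value of an array. Compression of their signal was not tested.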
